A study of Mus musculus with 9 samples.

Results

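The mitosis genes are 42 genes whose products carry a cell from entry into mitosis to its final separation, among them Mki67, Cdk1, both B-type cyclins, 8 kinesin motors and 4 condensin subunits. They were listed by name, with earlier results of the same tumors known. Their FPKM (fragments per kilobase of transcript, scaled to the number of mapped fragments) was read from the bulk RNA-seq tables of 9 mouse tumors, which hold 50404 distinct genes with a value in all 9. Hepa1-6 is a mouse hepatoma cell line, and the tumors were orthotopic, grown from a tumor piece placed in the left liver lobe of male C57BL/6 mice bought at 6 to 8 weeks of age. The sequenced tumors came from 3 mice given PBS and from 6 of the mice given anti-PD-1 antibody (clone RMP1-14). Both were given by intraperitoneal injection every 4 days for 5 times between days 10 and 26, and whole tumors were freed of surrounding tissue on day 27. Responsive here means the 3 smallest of the antibody-treated tumors and nonresponsive the 3 largest, while tumors of intermediate size were set aside. The 2 antibody-treated groups therefore differ in tumor size by the way they were chosen. All tumors come from 1 cell line, and each tumor is 1 mouse.

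Mitosis begins when the kinase Cdk1, bound to cyclin B, drives chromosome condensation and spindle assembly. The spindle checkpoint holds back the anaphase-promoting complex until every kinetochore is attached, and once it is released, cyclin B is destroyed, sister chromatids part, and kinesins and midzone proteins set up cytokinesis. Most of these genes are transcribed together late in the cell cycle, when the MuvB complex acts with the transcription factors B-Myb and Foxm1, and in resting cells the same promoters are held silent by the DREAM complex. Their mRNA level in a tumor is widely used as a readout of how many cells are dividing. In bulk RNA, fewer cells of a type and less RNA per cell cannot be told apart.

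The short promoter element through which MuvB acts is the cell cycle genes homology region (CHR, TTTGAA or TTTAAA), often found near CCAAT boxes bound by the factor NF-Y. The promoters of 6 members are shown because these genes recur in the comparisons that follow: Kif23, Ccnb1, Kif15 and Hmmr had the smallest p-values of the members with a matched promoter between responsive and PBS tumors, and Cdk1 and Ube2c were the most highly expressed members with a table entry of their own. Each runs 5′ to 3′ from 250 bases before to 30 bases after the transcription start, in RefSeq's sequence of mouse build GRCm38.p6, with CHR and CCAAT motifs on either strand in capitals (TTCAAA and ATTGG are the same motifs read on the other strand). The 280 bases lie at chr9:61946770-61947049 on the minus strand for Kif23, chr13:100786457-100786736 minus for Ccnb1, chr9:122950831-122951110 plus for Kif15, chr11:40733408-40733687 minus for Hmmr, chr10:69352883-69353162 minus for Cdk1 and chr2:164769679-164769958 plus for Ube2c.
Kif23: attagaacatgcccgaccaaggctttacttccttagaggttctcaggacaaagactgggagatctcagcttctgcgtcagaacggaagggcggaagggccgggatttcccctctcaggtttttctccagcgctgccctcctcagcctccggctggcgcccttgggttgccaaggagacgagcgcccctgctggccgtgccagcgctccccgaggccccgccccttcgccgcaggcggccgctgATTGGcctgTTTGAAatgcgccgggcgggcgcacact
Ccnb1: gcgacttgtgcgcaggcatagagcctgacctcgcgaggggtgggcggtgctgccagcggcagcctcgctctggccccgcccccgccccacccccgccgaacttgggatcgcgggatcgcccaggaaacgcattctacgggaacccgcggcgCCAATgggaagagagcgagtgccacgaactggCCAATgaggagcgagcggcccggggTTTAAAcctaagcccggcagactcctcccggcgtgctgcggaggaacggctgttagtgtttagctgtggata
Kif15: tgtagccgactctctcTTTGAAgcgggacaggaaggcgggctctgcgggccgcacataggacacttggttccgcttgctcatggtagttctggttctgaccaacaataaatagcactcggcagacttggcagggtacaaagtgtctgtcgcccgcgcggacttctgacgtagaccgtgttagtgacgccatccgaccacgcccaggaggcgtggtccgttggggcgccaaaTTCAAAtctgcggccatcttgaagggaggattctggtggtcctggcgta
Hmmr: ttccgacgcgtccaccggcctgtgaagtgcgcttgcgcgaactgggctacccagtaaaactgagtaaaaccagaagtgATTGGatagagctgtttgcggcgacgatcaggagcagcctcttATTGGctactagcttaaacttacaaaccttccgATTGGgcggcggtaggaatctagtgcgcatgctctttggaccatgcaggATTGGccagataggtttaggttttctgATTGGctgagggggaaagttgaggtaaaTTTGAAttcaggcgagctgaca
Cdk1: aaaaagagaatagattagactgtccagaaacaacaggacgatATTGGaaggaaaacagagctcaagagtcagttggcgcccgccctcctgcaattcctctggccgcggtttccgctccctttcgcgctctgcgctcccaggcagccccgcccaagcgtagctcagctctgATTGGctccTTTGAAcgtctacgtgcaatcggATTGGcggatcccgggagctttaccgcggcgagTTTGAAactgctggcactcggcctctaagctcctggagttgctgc
Ube2c: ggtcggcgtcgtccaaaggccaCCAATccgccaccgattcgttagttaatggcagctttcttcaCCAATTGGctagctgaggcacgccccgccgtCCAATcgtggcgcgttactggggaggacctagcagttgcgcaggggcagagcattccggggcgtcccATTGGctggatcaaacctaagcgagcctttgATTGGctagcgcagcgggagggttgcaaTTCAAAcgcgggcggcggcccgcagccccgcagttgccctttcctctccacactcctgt
In these windows Kif23 held 1 CHR motif beside 1 CCAAT motif, Ccnb1 1 beside 2, Kif15 2 beside 0, Hmmr 1 beside 5, Cdk1 2 beside 3 and Ube2c 1 beside 6, including one place in Ube2c where 2 CCAAT motifs on opposite strands overlap. A promoter could be matched for 34 of the 42 members, the others being Dlgap5, Kif20a, Tpx2, Ccna2, Foxm1, Incenp, Smc4 and Aurkb. Within 300 bases, from 250 before to 50 after the start, TTTGAA or TTTAAA on either strand was found in 29 of 34 members (85.3%) and in 30.6% of 27025 genes with a promoter. CCAAT on either strand was found in 24 members (70.6%) and in 41.1% of all genes, and both motifs together in 23 members (67.6%) and 12.2% of all genes. A match of these letters is a description of the sequence and says nothing of binding in these tumors.

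All 42 members were expressed, and all 42 reached an FPKM of 1 in at least 3 of the 6 tumors of every comparison, the minimum set for testing. 35 had an entry of their own in all 9 tumors. The other 7 shared an entry with a neighboring gene in some or all tumors, and transcripts were assembled in each tumor separately. These were Top2a and Foxm1 in all 9, Birc5 in 3, and Ccnb1, Ccnb2, Kif11 and Kif4 in 1 each. A shared entry carries the fragments of both genes, so its level is that of the joined entry. Aurka was listed at 0 in 1 tumor and Kif20a in 2 tumors, and the other 40 members were above 0 in every tumor. An exact 0 in such a table can be a failed estimate, so these 3 zeros may not be levels. The number of sequenced fragments is not given, so the depth behind each value is unknown. In each tumor 12533 to 13328 entries with a gene name reached an FPKM of 1, and entries that name no gene took 19.2% to 81.5% of the summed FPKM in PBS, 70.4% to 73.2% in the nonresponsive and 21.0% to 55.1% in the responsive tumors.

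FPKM is scaled by transcript length, so levels can be set side by side between genes. Cdk1 was the highest of the 35 members with their own entry in 7 tumors and Ube2c, the ubiquitin-conjugating enzyme of the anaphase-promoting complex, in the other 2. By the mean FPKM of the 9 tumors, Cdk1 (106) and Ube2c (98.8) stood at the top and Ttk (5.6), Kif18b (5.5) and Kif15 (5.3) at the bottom. The order of the levels was much the same from tumor to tumor, with Spearman's rho over the 35 genes between 0.709 and 0.988 (median 0.912) in the 36 pairs of tumors. The genes share libraries and normalization, and these coefficients are descriptions.

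**Figure D1:**
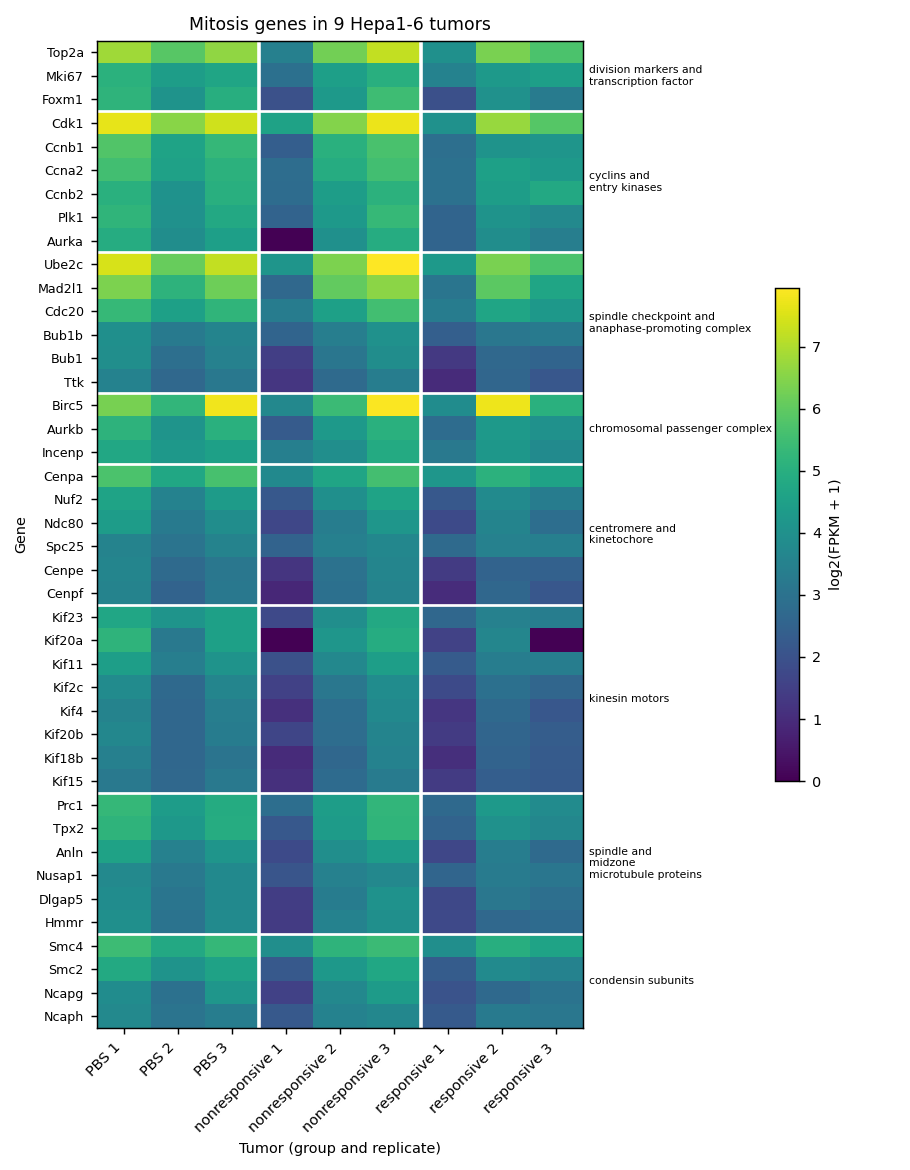
Level of each of the 42 mitosis genes (rows, grouped by role) in each of the 9 tumors (columns, group and replicate), as log2(FPKM + 1). Whole columns are light or dark together: nonresponsive tumor 1 and responsive tumor 1 are dark for nearly every gene, PBS tumor 1 and nonresponsive tumor 3 are light, and the isolated darkest cells are Aurka in 1 tumor and Kif20a in 2 tumors, listed at 0.

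What separated the tumors was the level of the whole set. The mean over the 42 members, on log2(FPKM + 1), was 4.76, 3.82 and 4.54 in the 3 PBS tumors, 2.203, 4.08 and 4.84 in the nonresponsive tumors, and 2.45, 3.92 and 3.47 in the responsive tumors. The nonresponsive group thus held both the lowest and the highest tumor of the series. Group means were 4.38 ± 0.49 in PBS, 3.71 ± 1.36 in the nonresponsive and 3.28 ± 0.75 in the responsive tumors (SD, n = 3 each). The mean over all genes tested in all 3 comparisons, for reference, was 3.88 in each group. No p-value is given for the mean over the members, since these were chosen with results of the same tumors known.

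**Figure D2:**
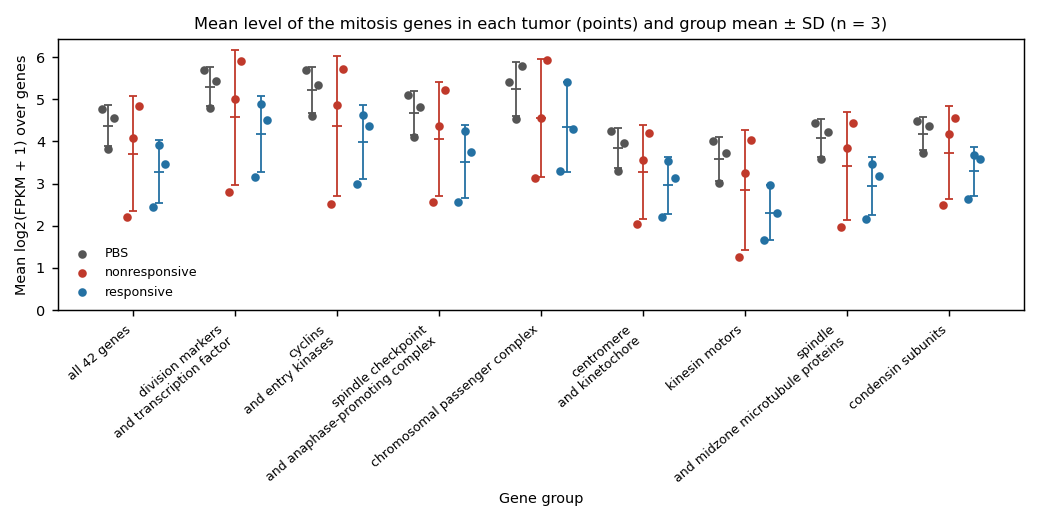
Mean log2(FPKM + 1) over all 42 mitosis genes and over each role group (x axis), with 1 point per tumor and horizontal marks with bars for the group mean ± SD (n = 3). In every role group the nonresponsive tumors span the widest range, and the responsive mean lies below the PBS mean.

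The same tumors were high or low for almost every gene. PBS tumor 2 was the lowest PBS tumor for 42 of 42 members, nonresponsive tumor 1 the lowest and nonresponsive tumor 3 the highest of their group for 42 of 42, and responsive tumor 1 the lowest responsive tumor for 41. Over all 9 tumors the lowest value fell in nonresponsive tumor 1 for 31 members and in responsive tumor 1 for 11, and the highest in nonresponsive tumor 3 for 23, in PBS tumor 1 for 18 and in PBS tumor 3 for 1. FPKM in nonresponsive tumor 3 exceeded that in nonresponsive tumor 1 by a median of 7.74-fold over the 40 members above 0 in both, from 2.52-fold for Spc25 to 20.0-fold for Birc5, a gene with shared entries. The spread within the other groups was smaller, with a median of 3.14-fold between responsive tumors 1 and 2 and 2.04-fold between PBS tumors 2 and 1. PBS tumor 2 and responsive tumor 2 could hardly be separated: 21 of 42 members were higher in one and 21 in the other, with a median log2 difference of 0.016.

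Across the 9 tumors, the 595 pairs of the 35 members with their own entry had a median Pearson's r of 0.968 (range 0.719 to 0.998), and 93.9% of the variance of these genes lay on 1 principal component. The covariation was not a matter of group means alone. Once each group's mean was removed, the median r was 0.972 and the lowest 0.697. These values describe 9 tumors whose libraries and scaling the genes share.

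Members differed in how far they swung with the rest. When each member with its own entry was regressed on the mean of the other members, a slope above 1 marked a gene that changed more than the others on log2(FPKM + 1). The added 1 compresses changes at low levels, so slopes depend in part on how highly a gene is expressed. Cenpf ran from an FPKM of 0.829 to 10.7 and Cdk1 from 15.4 to 208 over the 9 tumors, with slopes of 1.09 and 1.41. Among members above 0 in every tumor, slopes were highest for Mad2l1 (1.57), Ube2c (1.45) and Cdk1 (1.41). Kif20a (1.96) and Aurka (1.56) also had steep slopes, but these rest on the listed zeros, which lay up to 2.53 and 1.27 log2 units from their fitted lines. Mad2l1 encodes a core protein of the spindle checkpoint. The flattest members were Spc25 (0.40), a subunit of the Ndc80 kinetochore complex, Bub1b and Incenp (0.58 each), Ncaph (0.59), Nusap1 (0.61) and Smc4 (0.63). Mki67, the most used histological marker of dividing cells, lay among the flatter members at 0.71.

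Markers of other cell types differed between the same tumors. The summed FPKM of 12 hepatocyte markers, all 12 detected, was 489 to 4083 in PBS, 2444 to 9484 in the nonresponsive and 8707 to 18015 in the responsive tumors. Their mean on log2(FPKM + 1) was 3.90, 6.32 and 6.78 in PBS, 7.86, 6.86 and 6.02 in the nonresponsive and 8.97, 7.75 and 8.13 in the responsive tumors, so that nonresponsive tumor 1 and responsive tumor 1, the lowest in mitosis genes, were the highest of their groups. In the PBS group PBS tumor 1 was the highest in mitosis genes and the lowest in hepatocyte markers. Albumin (Alb) was at 2678 in nonresponsive tumor 1 and 885 in nonresponsive tumor 3. The 6 hepatoma and fetal liver markers summed to 107 to 259 in PBS, 36.4 to 303 in the nonresponsive and 39.8 to 255 in the responsive tumors, all 6 being detected in every tumor. Afp, the alpha-fetoprotein of liver tumors, was at 20.4, 25.3 and 18.2 in PBS, 0.321, 9.18 and 56.5 in the nonresponsive and 0.646, 53.9 and 4.40 in the responsive tumors, near 0 in the same 2 tumors. Krt19, a keratin of bile duct and progenitor cells, was at 212, 58.9 and 136 in PBS, 1.47, 69.0 and 194 in the nonresponsive and 5.82, 173 and 51.6 in the responsive tumors. The other 4 markers of this list were not near 0 in these 2 tumors. Igf2, a fetal growth factor, was at 1.12, 0.805 and 1.92 in PBS, 5.47, 5.20 and 3.84 in the nonresponsive and 6.13, 1.19 and 0.771 in the responsive tumors, and so was highest in the 2 tumors lowest in mitosis genes. Epcam, an epithelial adhesion protein, was at 2.14, 11.4 and 8.41 in PBS, 6.15, 4.09 and 2.73 in the nonresponsive and 13.6, 13.4 and 20.9 in the responsive tumors, wholly higher in the last. H19, an imprinted fetal RNA, was at 17.6 in nonresponsive tumor 1 and 11.03 in responsive tumor 1, within its range of 2.87 to 39.3 over the 9 tumors, and Gpc3, a fetal liver glypican, was at 5.43 and 2.53 there.

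Immune and stromal markers varied too. Summed FPKM of the 7 T cell markers was 37.7 to 139 in PBS, 84.0 to 88.3 in the nonresponsive and 100 to 144 in the responsive tumors. The B cell markers Ms4a1, Cd79a, Cd79b and Pax5 summed to 2.49 to 61.0, 20.05 to 27.7 and 53.4 to 188, with Cd79a listed at 0 in 1 tumor, so that the responsive tumors lay wholly above the nonresponsive ones. All 4 were higher at an unadjusted p-value under 0.05 in responsive than in nonresponsive tumors and 3 did not overlap, where 4.05% and 5.78% of all genes did so, and none passed the adjusted threshold in limma (adjusted p = 0.885 for each). The 7 macrophage markers summed to 578 to 1050, 1061 to 1931 and 919 to 1514, and the 4 plasma cell markers to 11.2 to 630, 190 to 397 and 173 to 1197. The ranges were 160 to 2409, 507 to 4949 and 399 to 3200 for 4 neutrophil markers, 2483 to 3884, 2704 to 4417 and 2340 to 2396 for 5 fibroblast markers, and 50.9 to 97.8, 60.8 to 123 and 65.4 to 99.6 for 4 endothelial markers. The erythroid genes Hba-a1, Hbb-bs, Alas2 and Klf1 summed to 46.0 to 225, 80.4 to 342 and 255 to 367, wholly higher in responsive than in PBS tumors, with Klf1 listed at 0 in 3 tumors and Alas2 in 1. The part of these markers in the differences of the mitosis genes was not tested.

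Responsive tumors were compared with PBS tumors to ask how the tumors that stayed small under antibody differ from those of mice given PBS. Since the responsive tumors were picked as the smallest, antibody and tumor size cannot be told apart here. Every one of the 42 members had a lower mean in the responsive tumors, with a median log2 fold change of -1.10, while the median over all 13850 genes tested was -0.11 and 57.9% of them had a lower mean. In limma, the moderated linear model fitted here across all genes on log2(FPKM + 1), no member reached an adjusted p-value under 0.05, the smallest being 0.281. Over all genes, 0.231% passed it in either direction. At an unadjusted p-value under 0.05, 17 of 42 members were lower and 0 higher, where 8.75% of all genes were lower and 8.47% higher. The 3 responsive tumors lay wholly below the 3 PBS tumors for 19 members, which was true of 16.4% of all genes. No member had a responsive group wholly above PBS, which 11.6% of all genes did. The shares of lower members exceeded those of all genes while no member passed the adjusted threshold. Since the members go up and down together, their counts are not of independent genes. They also hung on single tumors: without PBS tumor 1 or PBS tumor 3 only 1 member was lower at an unadjusted p-value under 0.05, without responsive tumor 1 there were 5 and without responsive tumor 3 there were 9, and without PBS tumor 2 or responsive tumor 2 there were 26 and 30. They hung on the fit as well: with all 9 tumors in 1 fit 0 members were lower at that p-value, without moderation of the spread 3, and after rescaling to the sum of named entries 29. The lower mean held throughout, in 41 or 42 members whichever tumor was left out.

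**Figure D3:**
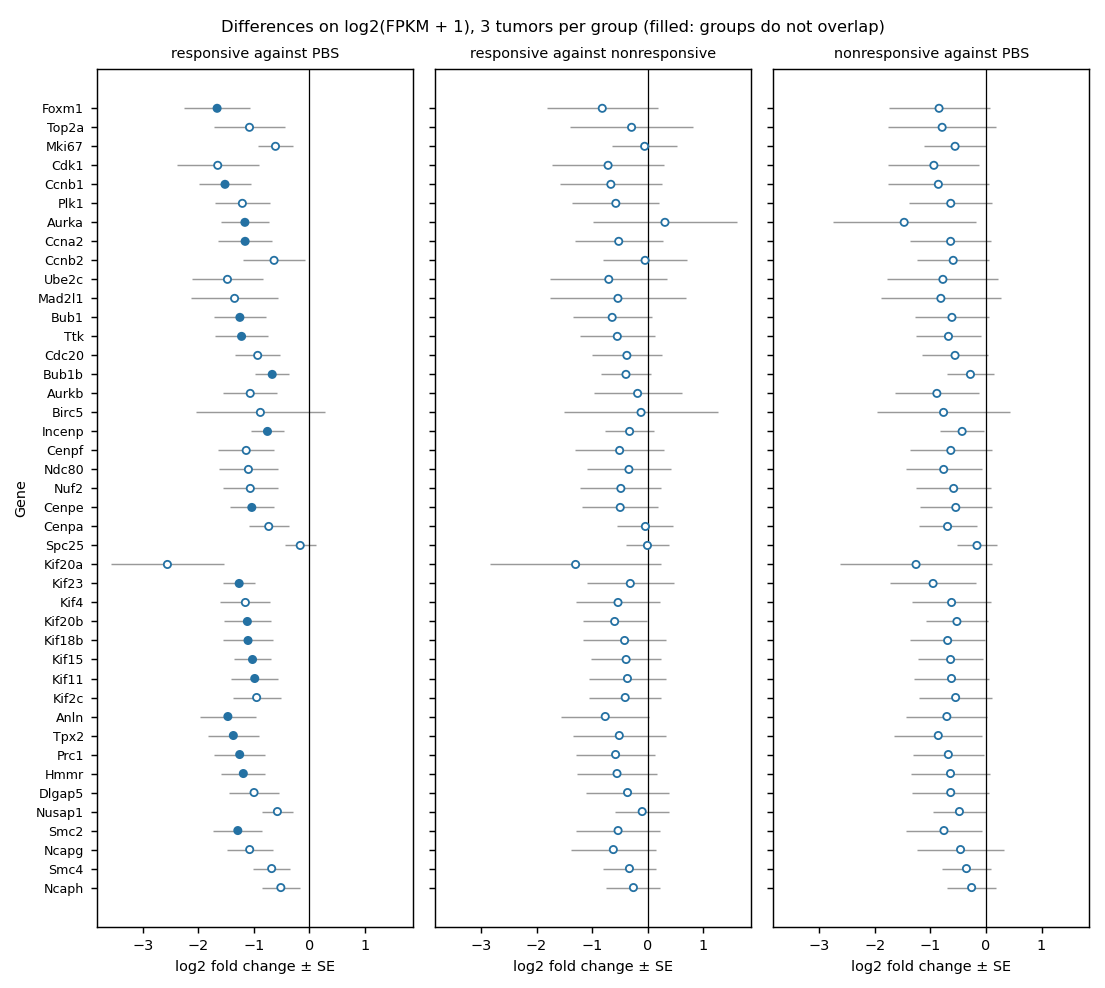
log2 fold change with its standard error (x axis) of each mitosis gene (rows, by role) in the 3 comparisons of 3 against 3 tumors, with filled points for genes whose 2 groups of tumors do not overlap. All 42 points lie below 0 in responsive against PBS, where 19 are filled, and none is filled in the other 2 comparisons.

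Among the division markers, Mki67, which coats mitotic chromosomes, was at an FPKM of 32.5, 20.3 and 24.4 in PBS tumors, 6.70, 21.6 and 31.7 in nonresponsive tumors and 10.6, 18.3 and 21.6 in responsive tumors. The responsive and PBS ranges overlapped by 1 pair of tumors, and the difference was -0.61 ± 0.317 (log2 fold change ± SE, n = 3 per group, limma adjusted p = 0.331). Top2a, the topoisomerase that untangles sister DNA before anaphase, was at 111, 57.6 and 97.2 in PBS, 10.05, 75.04 and 148 in the nonresponsive and 15.1, 80.4 and 51.3 in the responsive tumors. Its groups overlapped, with a difference between responsive and PBS of -1.08 ± 0.647 (limma adjusted p = 0.377). Foxm1, a transcription factor of the late cell cycle genes, was at 35.2, 16.1 and 30.9 in PBS, 2.94, 18.4 and 43.5 in the nonresponsive and 2.87, 15.3 and 8.85 in the responsive tumors. Its 3 responsive values lay below all PBS values, the closest pair being 15.3 and 16.1, and the difference was -1.66 ± 0.597 (limma adjusted p = 0.282). Top2a and Foxm1 were read from entries shared with other genes in every tumor.

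The cyclins and entry kinases gave 2 members at an unadjusted p-value under 0.05 and 3 without overlap, out of 6. Cdk1 was at 201, 92.2 and 166 in PBS, 23.1, 88.2 and 208 in the nonresponsive and 15.4, 106 and 57.4 in the responsive tumors. Its responsive mean of 59.5 ± 45.2 was far from the PBS mean of 153 ± 55.7 (FPKM, SD, n = 3), but 106 in responsive tumor 2 exceeded 92.2 in PBS tumor 2, and the difference was -1.65 ± 0.739 (limma adjusted p = 0.302). Ccnb1, the cyclin B1 partner of Cdk1, was at 53.9, 23.2 and 38.3 in PBS, 4.18, 32.2 and 50.3 in the nonresponsive and 6.42, 15.9 and 16.7 in the responsive tumors. These responsive values were all below PBS, with a difference of -1.52 ± 0.465, the second smallest p-value among the members (0.0184, limma adjusted p = 0.281). In PBS tumor 2, the lowest of the PBS tumors, the Ccnb1 entry also held Cenph. With the 2 genes joined in all tumors the difference was -1.27. The groups were then barely apart, with 22.9 in responsive tumor 3 and 23.2 in PBS tumor 2. Ccnb2, the second B-type cyclin, was at 31.9, 15.7 and 31.2 in PBS, 5.94, 20.6 and 33.8 in the nonresponsive and 6.77, 20.7 and 27.03 in the responsive tumors, the last from an entry shared with Rnf111, and its groups overlapped. Aurka, the centrosomal aurora kinase, was at 29.5, 14.05 and 21.3 in PBS, listed at 0 and then at 14.8 and 29.5 in nonresponsive tumors, and at 4.91, 13.8 and 9.52 in responsive tumors. The responsive tumors were below the PBS tumors by a narrow gap between 13.8 and 14.05, with a difference of -1.16 ± 0.427 (limma adjusted p = 0.283). Plk1, polo-like kinase 1, and Ccna2, cyclin A2, differed by -1.21 and -1.16.

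Of the 6 spindle checkpoint and anaphase-promoting complex genes, 2 had an unadjusted p-value under 0.05 and 3 did not overlap between responsive and PBS tumors. Ube2c was at 178, 67.5 and 147 in PBS, 16.5, 82.9 and 246 in the nonresponsive and 18.9, 80.8 and 51.1 in the responsive tumors. The overlap came from PBS tumor 2 and responsive tumor 2, and the difference was -1.48 ± 0.632 (limma adjusted p = 0.295). Bub1, a checkpoint kinase of the kinetochore, was at 14.2, 6.44 and 10.3 in PBS, 1.76, 7.75 and 13.8 in the nonresponsive and 1.49, 5.46 and 4.91 in the responsive tumors. It was lower in every responsive than in every PBS tumor, by -1.25 ± 0.465 (limma adjusted p = 0.284). Bub1b, which blocks Cdc20 as part of the mitotic checkpoint complex, was at 14.5, 8.601 and 11.1 in PBS, 4.88, 9.50 and 15.4 in the nonresponsive and 4.30, 7.94 and 8.47 in the responsive tumors. Its groups did not overlap either, though the size was smaller at -0.67 ± 0.308 (limma adjusted p = 0.307). Ttk, the Mps1 kinase that starts checkpoint signalling, was at 10.5, 5.43 and 8.16 in PBS, 1.40, 5.66 and 9.42 in the nonresponsive and 0.965, 5.14 and 3.43 in the responsive tumors, a difference of -1.22 ± 0.478 without overlap. Mad2l1 and Cdc20, the activator of the anaphase-promoting complex, overlapped between the groups, with differences of -1.35 and -0.93.

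The chromosomal passenger complex couples aurora kinase B to the centromere and, later, to the spindle midzone. Aurkb was at 34.5, 16.3 and 32.2 in PBS, 3.89, 18.9 and 32.3 in the nonresponsive and 6.00, 18.4 and 15.4 in the responsive tumors. The groups overlapped, with responsive tumor 2 above PBS tumor 2, and the difference was -1.07 ± 0.488 (limma adjusted p = 0.307). Incenp, the scaffold of the complex, did not overlap and differed by -0.76 ± 0.305. Birc5 (survivin) was listed at 78.7, 36.3 and 218 in PBS, 12.0, 41.8 and 239 in the nonresponsive and 13.6, 215 and 31.9 in the responsive tumors. The 3 highest values are the tumors in which its entry also held Afmid, Syngr2 and Gm20708, so they are not levels of Birc5 alone. With these genes joined in all tumors the group means were 209 in PBS and 204 in nonresponsive tumors, and the difference between responsive and PBS was -0.12 in place of -0.88. The joined value is not a level of Birc5 alone either: in PBS tumor 1 it was 202, where the separate Birc5 entry was 78.7. In the tumors with a separate entry, Birc5 was at 78.7 and 36.3 in PBS, 12.0 and 41.8 in the nonresponsive and 13.6 and 31.9 in the responsive tumors.

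Centromere and kinetochore genes attach chromosomes to the spindle. Of the 6, 1 had an unadjusted p-value under 0.05 and 1 did not overlap between responsive and PBS tumors. Their mean was 4.24, 3.31 and 3.96 in PBS, 2.05, 3.57 and 4.21 in the nonresponsive and 2.22, 3.53 and 3.14 in the responsive tumors, on log2(FPKM + 1). Cenpa, the histone variant that marks the centromere, was at 50.7, 25.8 and 48.2 in PBS, 12.6, 24.3 and 46.2 in the nonresponsive and 17.2, 33.4 and 22.7 in the responsive tumors. The groups overlapped and the difference was -0.73 ± 0.364 (limma adjusted p = 0.321). Cenpe, a kinetochore motor, was the group's only member without overlap (-1.04 ± 0.399), while Ndc80, Nuf2 and Cenpf differed by -1.10, -1.06 and -1.14 with overlap. Spc25 had the smallest difference of all 42 members, -0.17 ± 0.279 (limma adjusted p = 0.73), although it sits in the same 4-protein complex as Ndc80 and Nuf2.

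The kinesin motors gave 5 of 8 members at an unadjusted p-value under 0.05 and 5 of 8 without overlap. Of the former, 1 was Kif20a with its listed 0 in a responsive tumor. Kif23, the midzone motor of the centralspindlin complex, was at 25.03, 16.4 and 21.7 in PBS, 2.38, 14.3 and 26.5 in the nonresponsive and 5.32, 10.2 and 9.42 in the responsive tumors. The responsive tumors stood clear of the PBS tumors, and its difference of -1.26 ± 0.291 had the smallest p-value of the 42 members (0.00552, limma adjusted p = 0.281). Kif15, a spindle motor, was at 8.20, 5.47 and 8.37 in PBS, 1.17, 5.87 and 8.94 in the nonresponsive and 1.63, 4.24 and 3.79 in the responsive tumors. It differed without overlap by -1.02 ± 0.329 (limma adjusted p = 0.281). Kif20b, a motor of cytokinesis, was at 11.7, 5.24 and 9.19 in PBS, 2.17, 6.11 and 11.1 in the nonresponsive and 1.61, 5.03 and 4.05 in the responsive tumors. The gap between 5.03 and 5.24 was narrow, and the difference was -1.12 ± 0.423 (limma adjusted p = 0.286). Kif11, the motor that pushes spindle poles apart, was at 21.2, 9.59 and 16.1 in PBS, 2.90, 12.0 and 20.9 in the nonresponsive and 3.84, 9.31 and 9.37 in the responsive tumors, without overlap. Kif4, the chromokinesin that binds Prc1, was at 10.8, 5.25 and 9.57 in PBS, 1.13, 6.37 and 12.7 in the nonresponsive and 1.41, 5.64 and 3.44 in the responsive tumors, with overlap. Kif20a was at 34.8, 8.20 and 21.8 in PBS, listed at 0 and then at 17.0 and 29.5 in nonresponsive tumors, and at 1.97, 11.5 and a listed 0 in responsive tumors. The listed 0 in responsive tumor 3 weighs on its fitted difference between responsive and PBS tumors of -2.56 ± 1.02, which is no measured fold.

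Of the 6 spindle and midzone microtubule proteins, 4 had an unadjusted p-value under 0.05 and 4 did not overlap between responsive and PBS tumors. Prc1, the bundler of midzone microtubules, was at 38.6, 19.8 and 28.5 in PBS, 6.31, 20.5 and 36.9 in the nonresponsive and 5.59, 18.1 and 13.2 in the responsive tumors. It differed without overlap by -1.26 ± 0.463 (limma adjusted p = 0.284). Tpx2, which activates aurora kinase A on the spindle, was at 34.9, 18.0 and 29.5 in PBS, 3.599, 19.5 and 36.1 in the nonresponsive and 4.80, 15.1 and 11.9 in the responsive tumors, a difference of -1.37 ± 0.46 without overlap. Anln, the anillin scaffold of the cleavage furrow, was at 23.0, 10.2 and 16.7 in PBS, 2.46, 14.2 and 19.9 in the nonresponsive and 2.205, 9.37 and 5.76 in the responsive tumors. The difference was -1.47 ± 0.51, again without overlap. Hmmr, a spindle and hyaluronan-binding protein, was at 14.6, 7.13 and 13.0 in PBS, 1.63, 10.4 and 14.6 in the nonresponsive and 2.35, 5.42 and 5.94 in the responsive tumors, and differed without overlap by -1.19 ± 0.394 (limma adjusted p = 0.281). Dlgap5 and Nusap1, both microtubule-binding proteins, overlapped, at -0.997 and -0.58.

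Condensin folds chromosomes into their compact mitotic form. Smc4 was at 42.9, 27.005 and 38.0 in PBS, 14.2, 34.8 and 41.3 in the nonresponsive and 14.2, 30.8 and 23.2 in the responsive tumors, with overlap and a difference of -0.68 ± 0.333 (limma adjusted p = 0.319). Its partner Smc2 showed a larger difference without overlap, -1.29 ± 0.442. Ncapg and Ncaph, the non-SMC subunits of condensin I, differed by -1.08 and -0.51 with overlap.

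Responsive and nonresponsive tumors were compared to ask what separates small from large tumors under the same antibody. A lower mean in the responsive tumors was seen for 41 of 42 members, Aurka being the exception at 0.31 ± 1.29 with its listed 0 in nonresponsive tumor 1, and the median log2 fold change was -0.45. The median over all 13843 genes tested was -0.066, and 57.5% of them had a lower mean. No member reached an adjusted p-value under 0.05 in limma, where 0.116% of all genes did, and no member was below an unadjusted p-value of 0.05, where 1.44% of all genes were lower and 4.05% higher. The 2 groups overlapped for every member, while 4.75% of all genes were wholly lower and 5.78% wholly higher in responsive tumors. The smallest p-values were those of Kif20b, Anln, Bub1, Bub1b and Kif20a. Kif20b differed by -0.59 ± 0.577 and Anln by -0.76 ± 0.79 (limma adjusted p = 0.973 for both). Bub1 and Bub1b differed by -0.64 ± 0.71 and -0.39 ± 0.444, errors larger than the differences. Responsive tumor 1 was above nonresponsive tumor 1 in 31 members, whereas responsive tumors 2 and 3 were below nonresponsive tumor 2 in 33 and 40 members and below nonresponsive tumor 3 in 42 each.

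Most of that overlap involved nonresponsive tumor 1. With it left out, the responsive tumors lay wholly below the other 2 nonresponsive tumors for 32 members (17.7% of all genes) and 7 were at an unadjusted p-value under 0.05, with the smallest adjusted p-value at 0.352. With nonresponsive tumor 3 left out, by contrast, a lower responsive mean remained in 13 members only, and without responsive tumor 1 in 26. The difference of the mean over the members was -0.43 with all 6 tumors and ranged from -1.18, when nonresponsive tumor 1 was left out, to 0.14, when nonresponsive tumor 3 was. No direction between the 2 antibody-treated groups can be read from these 6 tumors.

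Nonresponsive and PBS tumors were compared to ask whether antibody-treated tumors picked as the largest differ from those of mice given PBS. All 42 members had a lower mean in nonresponsive tumors, with a median log2 fold change of -0.64 against -0.057 over all 13804 genes tested, 55.4% of which had a lower mean. No member reached an adjusted p-value under 0.05 in limma (0.0797% of all genes did), none was below an unadjusted p-value of 0.05 (1.71% of all genes were lower, 1.51% higher), and the groups overlapped for all 42, while 4.97% of all genes were wholly lower and 3.23% wholly higher. The smallest p-values were those of Cenpa (-0.69 ± 0.522), Kif23 (-0.95 ± 0.777), Aurkb (-0.88 ± 0.756), Ttk (-0.67 ± 0.58) and Cdk1 (-0.94 ± 0.82), each with a limma adjusted p of 0.718. Without nonresponsive tumor 1 the lower mean was left in 10 members and the difference of the mean over the members went from -0.67 to 0.083. Both comparisons with PBS use the same 3 PBS tumors, and each pair of comparisons shares a group, so they are not independent of each other.

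**Figure D4:**
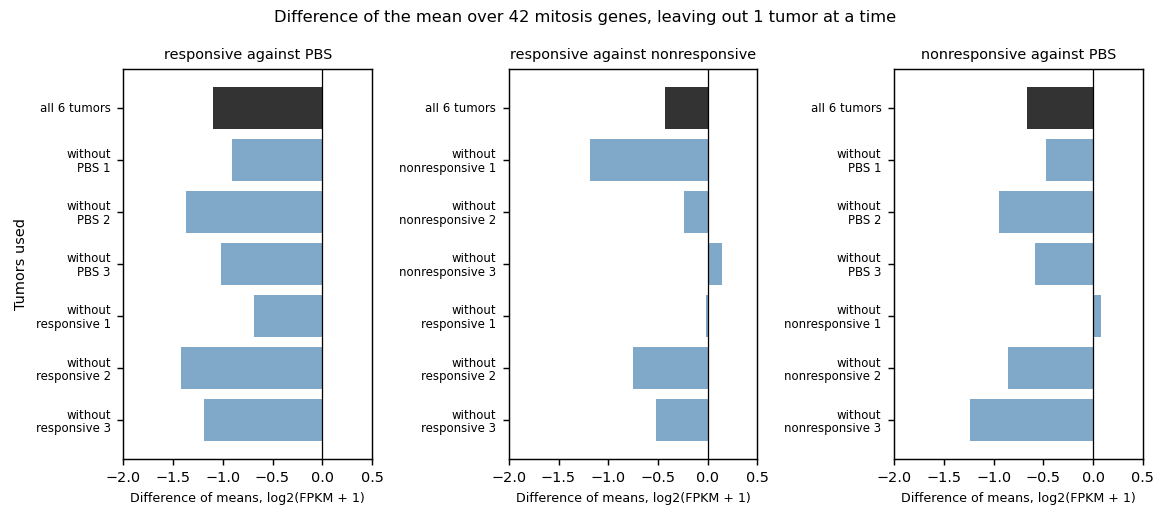
Difference between the group means of the mean over 42 mitosis genes (x axis, log2(FPKM + 1)) with all 6 tumors (dark bar) and with each tumor left out (light bars), for the 3 comparisons. Responsive minus PBS stays below 0, between -1.42 and -0.68, while the other 2 differences reach 0.14 and 0.083 when 1 nonresponsive tumor is left out.

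Other cell cycle genes were read beside the shares of all genes between responsive and PBS tumors, of which 57.9% had a lower mean, 8.75% were lower at an unadjusted p-value under 0.05 and 16.4% were wholly lower. Of 50 further mitosis genes, 48 were tested between responsive and PBS tumors, 47 of these had a lower mean, 19 were lower at an unadjusted p-value under 0.05 and 23 did not overlap, with a median log2 fold change of -0.97. Racgap1, the partner of Kif23 in centralspindlin, was at 69.4, 31.9 and 53.4 in PBS and 5.48, 34.1 and 18.9 in responsive tumors (-1.60 ± 0.671), and Bub3, a checkpoint protein, differed by -0.85 ± 0.349. Pttg1, the most highly expressed of these genes, had a mean FPKM of 68.0 in PBS and 51.8 in responsive tumors. Of 27 DNA replication genes 24 were tested, with 5 lower at an unadjusted p-value under 0.05, 9 without overlap and a median of -0.70. Mcm6, a subunit of the replicative helicase, differed by -0.93 ± 0.463 and Pcna, the sliding clamp, by -0.50 ± 0.23. Pole2, with the highest listed FPKM of this list, went the other way, with a mean of 527 in PBS and 573 in responsive tumors. Shared entries were traced for the members only, so a value in these lists can include a neighboring gene. Whether the value of Pole2 is its own is therefore not known. Over the replication list the differences ran from -1.21 to 0.19. All 14 genes of G1 cyclins, kinases and E2F factors were tested, 4 of them lower at an unadjusted p-value under 0.05 and 7 without overlap, with a median of -0.78. Ccnd1, cyclin D1, was at 188, 109 and 118 in PBS, 20.1, 82.8 and 159 in the nonresponsive and 20.1, 107 and 69.3 in the responsive tumors, and its kinase Cdk4 differed by -0.87 ± 0.458. Ccnd3, cyclin D3, went the other way, with a mean FPKM of 37.4 in PBS and 42.3 in responsive tumors. Over the G1 list the differences ran from -1.85 to 0.55.

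The lists outside this core had medians nearer to 0, and their counts stand against the same 8.75% and 16.4% of all genes. The 15 other subunits of the anaphase-promoting complex, present through most of the cell cycle, had a median of -0.48, with 4 lower at an unadjusted p-value under 0.05 and 6 without overlap. Of 11 DREAM and MuvB subunits 10 were tested, with a median of -0.40, 2 lower at an unadjusted p-value under 0.05 and 3 without overlap. The 12 cell cycle inhibitors had a median of -0.083, near that of all genes, with single differences from -1.54 to 0.69. Among them 1 was lower at an unadjusted p-value under 0.05 and 2 did not overlap, shares close to those of all genes. Cdkn1a (p21), the best known of them, was at 50.5, 91.4 and 91.2 in PBS, 144, 64.3 and 63.5 in the nonresponsive and 45.5, 57.9 and 80.5 in the responsive tumors. It was thus highest in nonresponsive tumor 1, which had the lowest mean over the mitosis genes. Its lowest value of the 9 tumors was in responsive tumor 1, which had the next lowest mean, so Cdkn1a did not follow the mitosis genes. Trp53, the second highest of the list, was lowest in these same tumors, at 34.4 in nonresponsive tumor 1 and 30.3 in responsive tumor 1. In these 6 lists limma gave 0 genes at an adjusted p-value under 0.05 in any comparison, and 0 were higher at an unadjusted p-value under 0.05 in responsive than in PBS tumors.

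**Figure D5:**
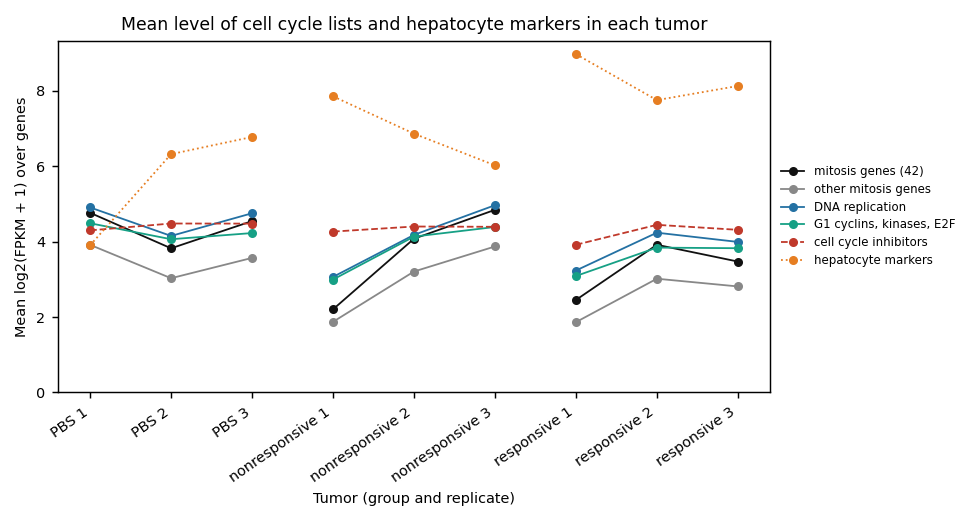
Mean log2(FPKM + 1) (y axis) over the 42 mitosis genes, 4 other cell cycle lists and 12 hepatocyte markers in each of the 9 tumors (x axis), with lines joining the tumors of a group for the eye only. The mitosis, DNA replication and G1 lists fall together in nonresponsive tumor 1 and responsive tumor 1, the inhibitors stay between 3.92 and 4.48, and the hepatocyte markers are highest in responsive tumor 1.

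Genes outside the set whose level most resembled the mean over the members were searched among 13232 other genes tested in all 3 comparisons. The 10 with the highest Pearson's r over the 9 tumors were Cdc6 (0.998), Spdl1, Kpnb1, Fignl1, Prr11, Spag5, Tacc3, Sms, Hat1 and Fancd2 (0.994). Cdc6, which loads the replicative helicase, was at 12.9, 6.35 and 10.4 in PBS, 1.42, 7.64 and 14.3 in the nonresponsive and 1.60, 5.88 and 4.28 in the responsive tumors. An r above 0.9 was found for 12.7% of the other genes and for 34 of the 35 members with their own entry, so that an r of this size was not particular to the members. An r of at least 0.99 was found for 0.325% of the other genes and for 13 of the 35 members. By list, the median r was 0.967 for the further mitosis genes, 0.967 for DNA replication, 0.964 for the G1 list, 0.823 for the anaphase-promoting complex, 0.602 for DREAM and MuvB and -0.18 for the inhibitors.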

How the data were processed

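RNA was extracted with Trizol from 9 tumors (3 per group) and libraries were made with the TruSeq kit. The authors' processing notes name TopHat2 2.1.1, Bowtie2 2.2.4 and the build mm8, and the authors deposited Cufflinks FPKM values per gene for transcripts assembled in each tumor. Coordinates of the entries were not used. Their table of Cuffdiff fold changes and p-values was not used. Fragment counts are not in the tables, so depth is unknown. Steps between low values gave a rough 0.936 to 1.07 times that of PBS tumor 1. In the other tumors this rests on only 12.0% to 16.6% of the low entries compared. No p-value can reflect anything beyond the spread between these mice.

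For each member, FPKM was summed over the entries naming it. Genes that reached an FPKM of 1 in 3 or more of the 6 tumors were tested with limma 3.58.1 in R 4.3.3 (lmFit, eBayes with trend) on log2(FPKM + 1). Tests were two-sided and adjusted over all genes by Benjamini-Hochberg. Fold changes on this scale understate those of low genes. An exact permutation test of 3 against 3 tumors cannot go below 0.1 and was not used. Lists and tables were handled in Python 3.11.15 with pandas 2.3.3 and drawn with matplotlib 3.10.9. The steps were tested on simulated data.

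The members and gene lists were chosen with earlier results of these data known. Values in all 9 tumors are given for Mki67, Top2a, Foxm1, the highest member of each role, the 5 members with the smallest p-value per comparison, and members listed at 0 or sharing an entry. Non-members named are among the 3 highest of a list or the 10 most alike, and others come from the marker lists. Alternatives were another pseudocount, other filters and scalings, 1 fit of 9 tumors, a replicate block, no moderation, joined loci and leaving out each tumor. Some markers are not reported here.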

Additional observations from a re-analysis of the deposited data

How the results depend on the processing

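No member reached an adjusted p-value under 0.05 in limma in any comparison under any alternative (smallest 0.159, in responsive against PBS without responsive tumor 2), and the 31 single-gene differences kept their direction in all 496 refits. In responsive against PBS, the 17 members lower at an unadjusted p-value under 0.05 became 29 after rescaling to the sum of named entries, 0 with all 9 tumors in 1 fit, 3 without moderation of the spread and 1 with the replicate number as a block. Leaving out 1 tumor gave 1 to 30 of them, and 19 to 41 members without overlap. In responsive against nonresponsive, leaving out 1 tumor gave 0 to 7 members at that p-value, 0 to 32 without overlap and 13 to 42 with a lower mean. In nonresponsive against PBS it gave 0 to 1, 0 to 6 and 10 to 42. The causes were not tested, but fewer tumors enter these fits. Correlations of same-numbered deviations were 0.527, 0.064 and -0.038 for responsive and nonresponsive, -0.33, -0.367 and 0.139 for responsive and PBS, and -0.426, -0.071 and -0.185 for nonresponsive and PBS. Those of differently numbered tumors ran from -0.523 to 0.498, from -0.282 to 0.482 and from -0.313 to 0.373 in the same order. Tumors with the same replicate number were thus not the more alike in every comparison. The rescaling moved the median of all genes to -0.24 in both comparisons of responsive tumors, with the median of the members at -0.61 against nonresponsive and -1.23 against PBS. It moved the share of lower genes among those under an unadjusted p-value of 0.05 from 26.2% to 65.0% in responsive against nonresponsive, from 50.8% to 70.3% in responsive against PBS and from 53.0% to 41.7% in nonresponsive against PBS.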
